A study of Mus musculus with 4 samples.

Results

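The genes followed here encode 10 chemokine ligands, namely Ccl2, Ccl3, Ccl4, Ccl6, Ccl17, Ccl22, Cxcl1, Cxcl2, Cxcl10 and Cxcl16, in the immune cells of tumour-bearing mice. They were taken by name from the 32285 genes in both expression matrices, and their unique molecular identifiers (UMIs, counted transcripts) were summed per mouse, tissue and cell class. They held 418665 of the 114162563 UMIs in cells assigned to a mouse. The animals were B6 mice bearing BeCon, and mice of both arms carried the tumour. One arm received YKL-05-099, which inhibits salt-inducible kinases, and the other its vehicle. Dose, schedule and age are not given in the sources used here. Live CD45+ MHCI+ cells were sorted from ascites, spleen and blood, and antibody hashtags told the mice apart after pooling. In ascites there were 4 vehicle mice and 4 treated mice (numbers 1 to 4 in each arm). Spleen and blood were sequenced together, from vehicle mice 1 to 3 and treated mice 2 to 4. Tumour and stromal cells were largely left out by the sort, so chemokine transcripts of those cells are outside these values.

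Chemokines are small secreted proteins that bind G protein-coupled receptors and draw leukocytes along a gradient. Macrophages, neutrophils and dendritic cells are among their main producers in inflamed tissue and in tumours. Ccl2 acts through Ccr2 and recruits monocytes. Ccl3 and Ccl4 are made by macrophages and by activated NK and T cells. Ccl3 binds Ccr1, and Ccl6 is a rodent ligand of the same receptor. Ccl17 and Ccl22 are the ligands of Ccr4, a receptor of regulatory and type 2 helper T cells. Cxcl1 and Cxcl2 bind Cxcr2 and recruit neutrophils. Cxcl10 is an interferon-induced ligand of Cxcr3, and Cxcl16 is a ligand of Cxcr6 that also exists in a membrane-bound form.

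On the GRCm38 build the genes lie in small groups. Ccl2 (chr11:82035571-82037453), Ccl6 (chr11:83587882-83593087), Ccl3 (chr11:83647844-83649355) and Ccl4 (chr11:83662584-83664683) are on chromosome 11, where Cxcl16 (chr11:70453983-70459984) lies apart from them. Ccl22 (chr8:94745590-94751699) and Ccl17 (chr8:94810453-94812036) are neighbours on chromosome 8. Cxcl1 (chr5:90891241-90893115), Cxcl2 (chr5:90903871-90905938) and Cxcl10 (chr5:92346638-92348889) are on chromosome 5. The 220 bases that end 31 bases before the RefSeq start (GRCm38.p6) were read for the 7 members with an entry; Ccl2, Ccl4 and Cxcl16 were not matched. Both strands were searched for 5 motifs. The NF-kB motif (GGG, any 2 bases, then TTTCC) was found in 2 member windows, Cxcl1 and Cxcl2, with 2 matches in each, and in 1.17% of 32841 gene windows of the same length. The interferon response motif (GAAA, any 2 bases, then GAAA) was found in 1 member window, Cxcl10, and in 2.63% of all windows. The half-site TGACG of the cyclic AMP response element, to which CREB binds, was found in the Cxcl1 window and in 14.8% of all windows. The AP-1 motif TGANTCA was in the Cxcl10 window and in 6.12% of all, and the C/EBP motif TTGCNNAA was in 0 of 7 member windows and in 8.78% of all. The upstream windows of Cxcl1 and Cxcl2, which bind the same receptor, are shown with the NF-kB matches in capitals, that of Cxcl10 with the interferon response match in capitals, and that of Ccl3, a member that fell in ascites, as one with neither match. They are written 5′ to 3′ along the gene's strand, at chr5:90890995-90891214 (plus), chr5:90903649-90903868 (plus), chr5:92348920-92349139 (minus) and chr11:83649409-83649628 (minus).
Cxcl1: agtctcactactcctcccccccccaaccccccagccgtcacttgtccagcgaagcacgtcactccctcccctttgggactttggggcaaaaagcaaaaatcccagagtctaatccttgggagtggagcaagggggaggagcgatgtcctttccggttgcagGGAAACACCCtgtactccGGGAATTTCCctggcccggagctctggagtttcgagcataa
Cxcl2: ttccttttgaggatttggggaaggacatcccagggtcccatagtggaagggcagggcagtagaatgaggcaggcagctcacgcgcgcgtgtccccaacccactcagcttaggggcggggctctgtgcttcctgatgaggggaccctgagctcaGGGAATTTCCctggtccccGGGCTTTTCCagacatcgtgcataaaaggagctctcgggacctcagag
Cxcl10: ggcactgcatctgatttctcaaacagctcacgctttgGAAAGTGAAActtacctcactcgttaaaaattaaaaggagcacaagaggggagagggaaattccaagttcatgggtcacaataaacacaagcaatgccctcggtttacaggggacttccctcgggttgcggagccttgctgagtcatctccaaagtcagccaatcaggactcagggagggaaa
Ccl3: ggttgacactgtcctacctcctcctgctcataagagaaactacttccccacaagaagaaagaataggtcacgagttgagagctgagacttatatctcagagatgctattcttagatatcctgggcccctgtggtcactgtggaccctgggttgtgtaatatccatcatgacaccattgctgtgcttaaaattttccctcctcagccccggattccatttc
In Cxcl1 the NF-kB matches lay 89 to 80 and 71 to 62 bases before the start, and in Cxcl2 97 to 88 and 78 to 69 bases before it. The Cxcl10 match lay 213 to 204 bases before the start. A match is a run of letters, and binding was not measured.

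Of the barcodes kept after filtering, 6274 ascites, 4032 spleen and 2570 blood cells were assigned to a mouse, and the 2 libraries shared 35 kept barcodes. A mouse contributed 666 to 1094 ascites cells with 5947382 to 10819705 UMIs, 573 to 783 spleen cells with 4844548 to 6220644 UMIs, or 367 to 497 blood cells with 1868323 to 2972635 UMIs. Ptprc, which encodes CD45, had a UMI in 92.1%, 94.05% and 93.2% of these cells, and 0, 2 and 0 cells met the gate for tumour or mesothelial markers. Each cell was placed in a class by fixed marker genes that include none of the 10 members. No gate took 13.6% of ascites cells and 5.77% of spleen and blood cells. Levels are given as UMIs of the gene per 1000000 UMIs of the same cells (CPM), as mean ± SD over mice, and differences as log2 of treated over vehicle ± standard error. Free RNA adds UMIs to a droplet whatever the depth of its cell, so it weighs more on the CPM of shallow cells. It was therefore compared as UMIs per cell, from ascites B cells, a class not known as a source of most of these ligands (mean over 4 vehicle mice of their median depth, 4162 UMIs). Vehicle B cells held 2.72 ± 0.71 Cxcl2 UMIs per cell and 1.48 ± 0.098 Ccl6 UMIs (n = 4). They held 0.378 ± 0.044 Cxcl1, 0.370 ± 0.041 Ccl2, 0.309 ± 0.068 Ccl4 and 0.297 ± 0.057 Ccl3 UMIs per cell. Cxcl10, Cxcl16, Ccl17 and Ccl22 were between 0.0161 and 0.0604 UMIs per cell there.

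In ascites the 10 genes divided into a macrophage set and a dendritic cell set. In vehicle mice the macrophage gate held 49.6% of all UMIs but 88.7% of the Cxcl1 UMIs, 84.1% of Ccl6, 76.9% of Cxcl10, 75.9% of Ccl2, 74.7% of Cxcl2, 73.9% of Ccl4 and 68.0% of Ccl3. In treated mice, where the gate held 30.5% of all UMIs, its part of these 7 genes ranged from 51.3% for Ccl3 to 76.2% for Ccl6. Neutrophils were the other large source of Ccl3 (11.5% of vehicle UMIs) and Cxcl2 (10.2%). Migratory dendritic cells, marked by Fscn1 and Cacnb3, held 50.9% of the Ccl22 UMIs of vehicle mice and 88.6% of those of treated mice. For Ccl17 their part was 9.45% of 656 UMIs in vehicle mice and 65.6% of 1068 in treated mice. Of the vehicle Ccl17 UMIs, 42.1% lay in the gate of cDC1 and 27.7% in that of cDC2, the conventional dendritic cells that cross-present antigen and that prime CD4 T cells. Few cells carried them. Of the 276 Ccl17 UMIs in the vehicle cDC1 gate, 216 were in 1 cell of vehicle mouse 3, which lay in an unnamed cluster led by Il12b, and the 240 gate cells in the cDC1 cluster held 60. In the vehicle cDC2 gate, 182 Ccl17 UMIs lay in 18 of 183 cells. Cxcl16 was shared between the sets, with 52.1% in macrophages, 17.01% in cDC1 and 15.4% in migratory dendritic cells of vehicle mice, and 41.7% in migratory dendritic cells of treated mice. These parts are a description of pooled UMIs and move with the number of cells in each class.

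**Figure D1:**
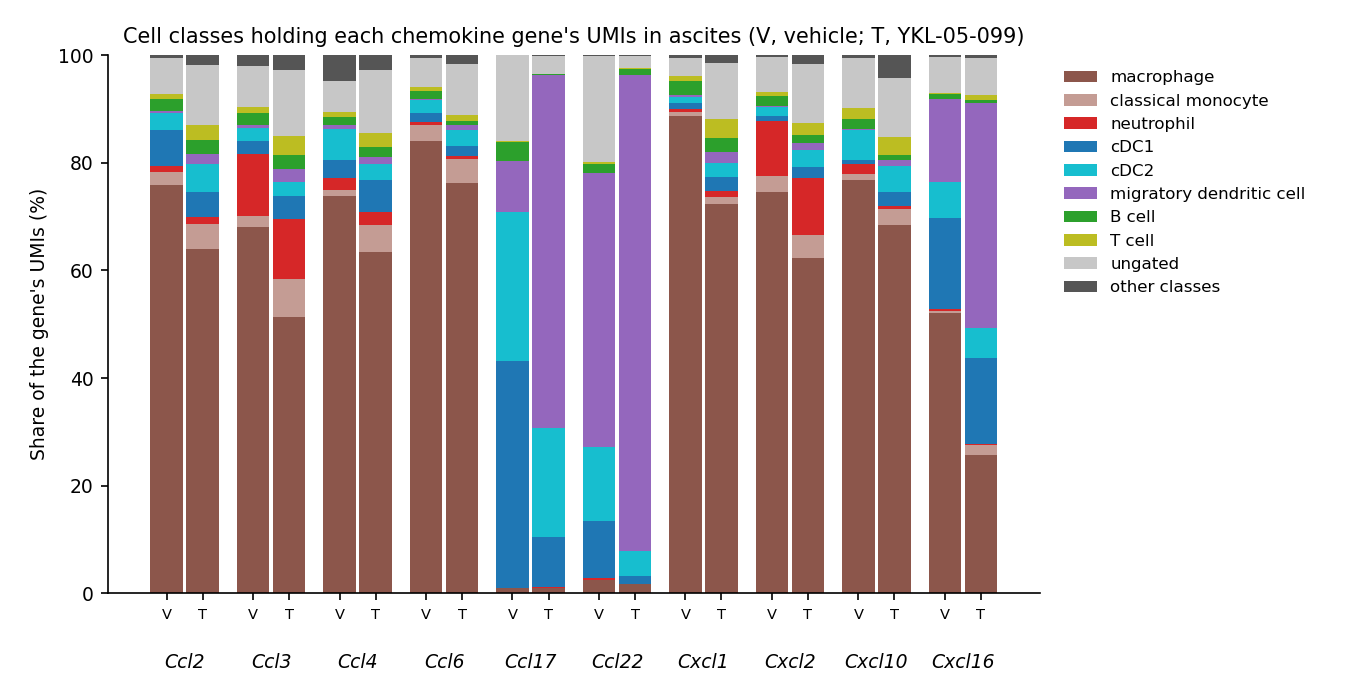
Percentage of each gene's UMIs (vertical axis) by marker-gated cell class (colours) in ascites, pooled over 4 vehicle (V) or 4 treated (T) mice. The macrophage part of Cxcl16 was 52.1% in vehicle and 25.8% in treated mice, and the migratory dendritic cell part of Ccl17 was 9.45% and 65.6%.

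The first comparison asked whether the inhibitor altered the chemokine transcripts of ascites as a whole. Ccl2, Ccl3 and Ccl4 fell, so that 3 of 10 members were called lower and 0 higher (edgeR adjusted p below 0.05 over 11654 genes). Of all genes tested 10.2% were called lower and 8.15% higher. The median log2 difference was -0.32 over the members and 0.02 over all genes. Ccl2 stood at 311, 376, 250 and 371 CPM in vehicle mice 1 to 4 and at 142, 213, 217 and 122 in treated mice 1 to 4. Every treated mouse was below every vehicle mouse, and the difference was -0.91 ± 0.21 (edgeR adjusted p = 0.0156). Ccl3 was 285, 297, 212 and 293.5 CPM in vehicle mice and 162.5, 151, 166.5 and 107 in treated mice. Its arms also did not overlap, and it fell by 0.89 ± 0.16 (edgeR adjusted p = 0.00404). Ccl4 was 429, 517, 235 and 432.5 CPM in vehicle mice and 235, 183, 291 and 239 in treated mice, so that vehicle mouse 3 lay within the treated range. Its difference of -0.77 ± 0.23 was near the threshold (edgeR adjusted p = 0.0468) and lost the call without any one of treated mice 1, 2 and 4 or vehicle mice 1, 2 and 4 (edgeR adjusted p from 0.0841 to 0.119), without the low-count filter (0.122) and with a limit of 5% mitochondrial UMIs (0.0540). Over 16 alternative settings the call was kept in 15 for Ccl2, 16 for Ccl3 and 7 for Ccl4, and DESeq2 also called Ccl17 and Ccl22 higher and Cxcl1 and Cxcl2 lower.

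Among the other members of whole ascites, the Cxcr2 ligands had lower means in treated mice but did not pass. Cxcl1 was 299, 325, 156 and 342 CPM in vehicle mice and 169, 193, 169 and 119.5 in treated mice (-0.79 ± 0.24, edgeR adjusted p = 0.0550). Cxcl2 was 3421, 3498, 2350 and 3629 CPM in vehicle mice and 1824, 2445, 2318 and 1255 in treated mice (-0.72 ± 0.22, edgeR adjusted p = 0.0568). Vehicle mouse 3 was the low vehicle sample for both genes and the only one that lay within the treated range. Without it Cxcl1 (-0.99, edgeR adjusted p = 0.00269) and Cxcl2 (-0.84, adjusted p = 0.0341) were called lower and Ccl17 was called higher (1.71, adjusted p = 0.00526), which made 6 members. The share of all genes called in that fit is not reported here, so this count has no background beside it. With all mice the Ccr4 ligands did not pass. Ccl22 was 8.54, 29.7, 18.8 and 29.1 CPM in vehicle mice and 32.9, 59.1, 39.2 and 93.8 in treated mice, with no overlap (1.37 ± 0.44, edgeR adjusted p = 0.0698). Ccl17 was 6.88, 11.7, 30.9 and 15.9 CPM in vehicle mice and 27.6, 38.3, 35.9 and 50.4 in treated mice (1.20 ± 0.41, edgeR adjusted p = 0.0787). Of the 316 Ccl17 UMIs of vehicle mouse 3, the highest vehicle mouse, 216 were in the 1 cell named above. Cxcl16 (0.27 ± 0.11), Cxcl10 (0.18 ± 0.36) and Ccl6 (0.08 ± 0.28) overlapped between the arms. On leaving out a mouse, Cxcl16 passed only without treated mouse 4 (0.36, edgeR adjusted p = 0.0204). It was also called with same-numbered mice of the arms taken as blocks. The arms did not overlap for 2 members lower and 1 higher in treated mice, against 12.4% and 11.2% of all genes tested.

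**Figure D2:**
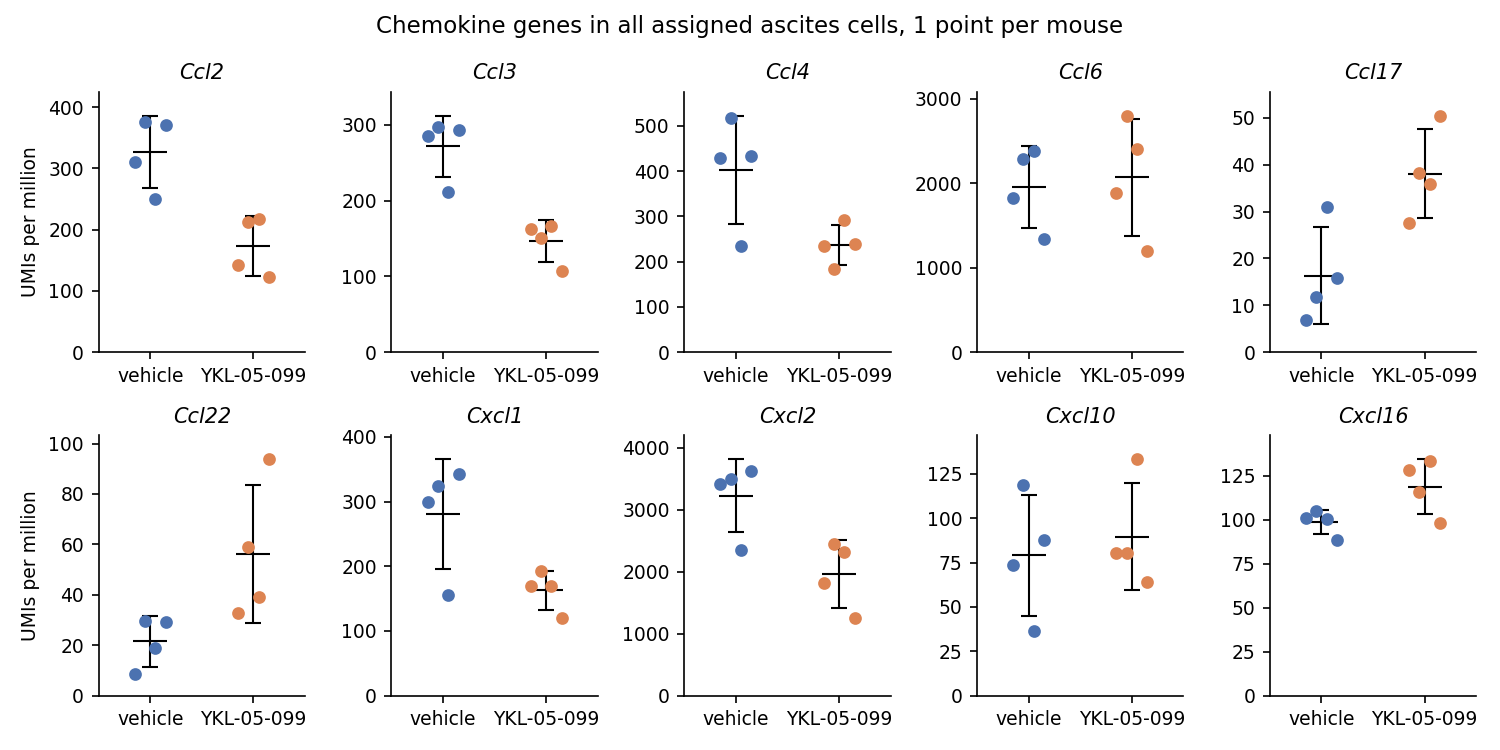
CPM (vertical axes, from 0) of the 10 genes in all assigned ascites cells, with 1 point per mouse and the mean ± SD of 4 vehicle (blue) or 4 treated (orange) mice. Ccl2, Ccl3 and Ccl22 did not overlap between the arms, and vehicle mouse 3 was the lowest vehicle mouse for Ccl2, Ccl3, Ccl4, Cxcl1, Cxcl2 and Cxcl10.

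In whole tissue, fewer cells of a class and less RNA per cell cannot be told apart, so the shares of the main source classes are given here. Macrophages were 33.6% ± 8.47 of vehicle cells and 25.4% ± 9.42 of treated cells, with overlap (exact two-sided permutation p = 0.286, adjusted p = 0.416 over the classes, n = 4 each). Neutrophils were 3.92% ± 1.57 and 2.54% ± 0.83 (exact permutation p = 0.200, adjusted p = 0.320). Migratory dendritic cells were 2.45% ± 0.85 and 7.35% ± 2.18, with every treated mouse above every vehicle mouse. Their exact permutation p of 0.0286 is the smallest that 4 against 4 mice allow, and the adjusted p was 0.152. The part of these shares in the whole-tissue differences was not tested, and the values within classes follow.

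Within the macrophage gate, the CPM of Ccl6 was higher in treated mice, and Ccl6 was the only member called of 8 tested (edgeR adjusted p below 0.05). Of the 9947 genes tested there, 10.4% were called higher and 11.2% lower. The members' median log2 difference was -0.28, and that of all genes was 0.01. Gate cells were shallower in treated mice, without overlap. Their median depth was 16278.5 UMIs in vehicle mice (mean over mice, 15741 to 16964) and 11060.5 in treated mice (8870 to 13337). CPM is relative to all UMIs of the cells, and the part of depth in the member differences was not tested. Ccl6 was 3504, 3715, 3553 and 2364 CPM in vehicle mice and 4640, 5640, 5422 and 4008 in treated mice. The arms did not overlap, as in 11% of genes tested (13.7% in the other direction), and the difference was 0.60 ± 0.16 (edgeR adjusted p = 0.0284). It lost the call without treated mouse 2 (edgeR adjusted p = 0.0746) or treated mouse 3 (0.0624), with classes taken from clusters (0.54, adjusted p = 0.141) or with a limit of 5% mitochondrial UMIs (0.73, adjusted p = 0.0569), and it kept the call in 14 of 19 alternative settings. Ccl3 was 416.5, 367, 253 and 489 CPM in vehicle mice and 243, 207, 294 and 229 in treated mice (-0.63 ± 0.21, edgeR adjusted p = 0.0668). Ccl2 was 497, 582, 352 and 605 CPM in vehicle mice and 268, 380.1, 422.5 and 332 in treated mice (-0.52 ± 0.19, edgeR adjusted p = 0.0949). As in whole ascites, vehicle mouse 3 was the low sample. Without it Ccl2 (-0.66, edgeR adjusted p = 0.00402), Ccl3 (-0.79, adjusted p = 0.00163), Cxcl1 (-0.68, adjusted p = 0.00055) and Cxcl2 (-0.53, adjusted p = 0.0256) were called lower beside Ccl6 (0.64, adjusted p = 0.0407). For this fit, too, the share of all genes called is not reported here. Ccl3 also passed without treated mouse 3 (-0.75, edgeR adjusted p = 0.0447), and DESeq2 called Ccl2 and Ccl3 with all mice. With all mice Cxcl1 (523 ± 203 and 383 ± 33.0 CPM), Cxcl2 (4978 ± 1453 and 3862 ± 588), Ccl4 (616 ± 225 and 525 ± 173), Cxcl10 (126 ± 58.1 and 198 ± 75.4) and Cxcl16 (103 ± 10.9 and 99.7 ± 7.79) overlapped between the arms (n = 4 each).

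The gate was not the same mixture of cells in the 2 arms, and part of it lay in clusters led by genes of other classes. Its own 7 marker genes summed to 10163 to 10837 CPM in vehicle mice and to 7746 to 8538 in treated mice, and none of them was at 0. The 5 neutrophil markers summed to 105 to 212 CPM and 44.9 to 98.6, the 4 cDC2 markers to 165 to 214 and 110 to 158, the 5 T cell markers to 5.99 to 16.1 and 21.1 to 36.5, and the 6 NK cell markers to 0.507 to 1.09 and 1.23 to 3.06. Each of these sums separated the arms, and their part in the member differences was not tested. Clusters computed without any chemokine gene placed 70.1% of treated gate cells in cluster 1 (led by Ctsk, Pdpn and Gpnmb), which held 2.13% of vehicle gate cells. Vehicle gate cells were spread over cluster 8 (Lyve1, Fcna and Marco, 30.8%), cluster 5 (Retnla, Ear2 and Mgl2, 22.9%), cluster 13 (Fcrls and Ms4a7, 16.6%) and cluster 15 (Prg4 and Alox15, 10.55%). Clusters 3 and 5 carried monocyte or cDC2 markers among their leading genes, and cluster 14 had a median of 868 UMIs per cell. Leaving out cells of such clusters, a step added after seeing the data, removed 388 of 1128 vehicle and 162 of 709 treated cells. Ccl6 then kept its direction without passing (0.62 ± 0.21, edgeR adjusted p = 0.0819), and Ccl3 was called lower (-0.64 ± 0.20, edgeR adjusted p = 0.0469). Ccl2 stood at -0.41 ± 0.27 (edgeR adjusted p = 0.324).

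By cluster number, with all mice pooled, the levels of these genes differed between macrophage clusters. Cxcl1 was 905 CPM in cluster 15 and 650 in cluster 8, but 420 in cluster 1 and 278 in cluster 13. Ccl4 was lowest in cluster 15, at 180 CPM, and highest in cluster 13, at 966, with 481 in cluster 8 and 474 in cluster 1. Ccl6 was 5533 CPM in cluster 1, 4558 in cluster 8 and 1391 in cluster 15. Clusters 1, 3, 5, 14 and 16 held 20 or more gate cells in both arms, and their values are single pooled sums with Poisson 95% intervals that cover counting error only. In cluster 1, Ccl6 was 2121 CPM (1960 to 2292) in the 24 vehicle cells and 5684 CPM (5628 to 5741) in the 497 treated cells. Cluster 16, led by histone and cell division genes, had Ccl6 at 1889 CPM (1821 to 1960) and 4053 CPM (3885 to 4226). In clusters 3 and 5, Ccl6 differed less, with 3497 and 3466 CPM and with 3173 and 3726 CPM. In the shallow cluster 14 it was 3009 CPM (2458 to 3645) and 3635 CPM (3182 to 4136). Ccl2 was lower in treated cells of clusters 1, 3, 5 and 16, most in cluster 5, at 603 CPM (579 to 627) and 224 CPM (181 to 275). In cluster 14 it was higher in treated cells, at 665 CPM (422 to 998) and 881 CPM (666 to 1144), with overlapping intervals. Ccl3 was lower in clusters 5 and 16 (365 and 138 CPM, and 291 and 99.8 CPM) and higher in cluster 3 (264 and 379 CPM). In cluster 1, which held most treated gate cells, Ccl3 was 214 CPM (165 to 273) and 245 CPM (233 to 257), and in cluster 14 it was 984 and 897 CPM. These differences within clusters were not tested.

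**Figure D3:**
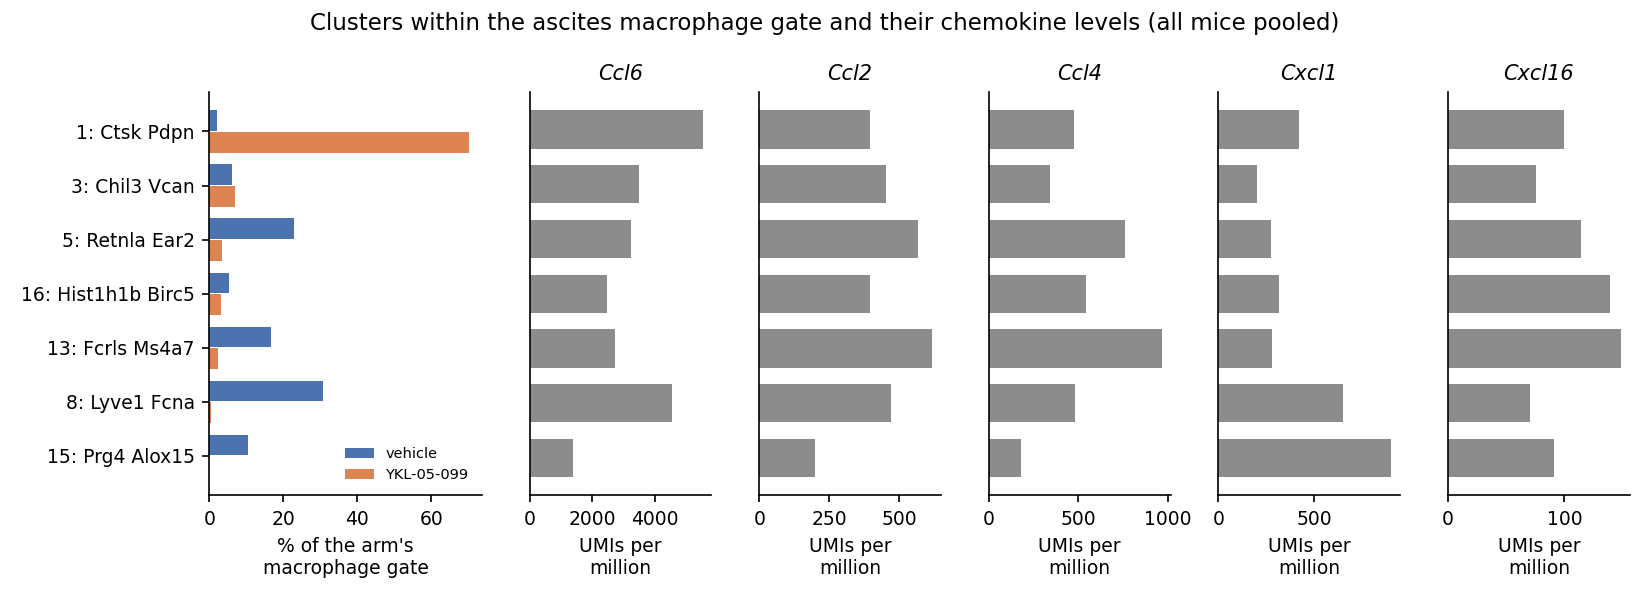
Left, percentage of each arm's macrophage gate in each cluster (blue vehicle, orange treated); right, CPM of 5 genes in the gate cells of each cluster, pooled over all mice (all axes from 0). Cluster 1 held 70.1% of treated and 2.13% of vehicle gate cells and had the highest Ccl6 level with the arms pooled. Its Ccl6 was 2121 CPM in 24 vehicle cells and 5684 CPM in 497 treated cells. Cluster 14, with few UMIs per cell, is not drawn.

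Migratory dendritic cells, which carry antigen towards lymph nodes, were the class with the highest Ccl22 and Cxcl16 levels in ascites. Ccl22 had a UMI in 63.8% of vehicle and 72.7% of treated migratory cells, against 1.75% of vehicle B cells, with median depths of 12060.0, 13026 and 4226 UMIs per cell. With each cell thinned to 2000 UMIs these shares were 31.2%, 40.2% and 0.822%. For Cxcl16 the full-depth shares were 96.2%, 95.1% and 5.38%. Of 9 members tested in this class over 4267 genes, 1 was called lower and 0 higher, where 4.34% of all genes were lower and 4.94% higher. Vehicle mouse 4 had fewer than 20 such cells and did not enter.

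Ccl17 was 55.3, 95.8 and 21.7 CPM in the migratory cells of vehicle mice 1 to 3 and 110, 308, 185 and 564.1 in treated mice 1 to 4. Every treated mouse was above every vehicle mouse, but the treated mice were spread from 110 to 564.1 CPM, and the difference did not pass (2.24 ± 0.89, edgeR adjusted p = 0.227). Ccl22, the other Ccr4 ligand, was 234, 674 and 339.9 CPM in vehicle mice and 250.2, 563.5, 332.5 and 1198 in treated mice, with overlap (0.41 ± 0.72, edgeR adjusted p = 0.818). The order of the treated mice was the same for both genes, with mouse 4 highest and mouse 1 lowest. Cxcl16 was 604, 624 and 600.2 CPM in vehicle mice and 492, 525, 559 and 494.5 in treated mice. It varied little between mice, its arms did not overlap, and its difference did not pass (-0.24 ± 0.14, edgeR adjusted p = 0.326). The called member was Ccl4, at 51.0, 95.8 and 228 CPM in vehicle mice and 38.8, 30.5, 26.3 and 45.6 in treated mice (-1.89 ± 0.39, edgeR adjusted p = 0.00825). Per cell this was 1.58 ± 1.27 Ccl4 UMIs in vehicle and 0.461 ± 0.093 in treated migratory cells, against 0.309 ± 0.068 and 0.320 ± 0.066 in B cells. The T cell markers summed to 13.2 to 119 CPM in vehicle and to 8.88 to 13.1 in treated migratory cells, and the plasmacytoid dendritic cell markers to 3.30 to 8.51 and to at most 2.68, with 1 of 4 at 0. Their part in the Ccl4 difference was not tested. Without vehicle mouse 3 the Ccl4 difference was -1.16 (edgeR adjusted p = 0.0235), and the call was kept in 14 of 16 alternative settings. It was lost with classes taken from clusters (-1.49, adjusted p = 0.0961) and where 10 cells per mouse sufficed (-1.64, adjusted p = 0.138). DESeq2 called Ccl17 as well (2.30, adjusted p = 0.0391). The arms did not overlap for Ccl2, Ccl3, Ccl4 and Cxcl16 (lower) or Ccl17 (higher), against 8.84% and 10.6% of all genes tested in the class.

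In cDC1, 3 of 9 members were called lower and 1 higher, where 9.08% of 7393 genes were lower and 8.26% higher. Ccl2 was 161.5, 108, 78.2 and 275 CPM in vehicle mice and 38.8, 52.8, 46.1 and 33.4 in treated mice. All treated mice were below all vehicle mice, and Ccl2 fell by 1.91 ± 0.43 (edgeR adjusted p = 0.0265). Per cell this was 2.98 ± 1.85 Ccl2 UMIs in vehicle and 0.786 ± 0.140 in treated cDC1, against 0.370 ± 0.041 and 0.333 ± 0.080 in B cells. At full depth 64.0% of vehicle and 45.1% of treated cDC1 had a Ccl2 UMI, against 28.8% and 31.5% of B cells (median depths 19573, 18004, 4226 and 3932 UMIs). Thinned to 2000 UMIs these shares were 20.9%, 7.14%, 13.4% and 16.1%, and since thinning removes more free RNA from deeper cells, cDC1 and B cells are not ordered by them. The call was lost without vehicle mouse 1 or without any one treated mouse (edgeR adjusted p from 0.0637 to 0.0779), without the low-count filter (0.0530) and with hashtag counts scaled per hashtag (0.0534). Cxcl16, with 2.39 ± 0.31 UMIs per vehicle cell against 0.0525 ± 0.010 in B cells, was 128.5, 120.1, 127 and 128 CPM in vehicle mice and 105, 81.4, 102 and 115 in treated mice (-0.37 ± 0.12, edgeR adjusted p = 0.0248). Its arms did not overlap, and it lost the call without treated mouse 2 (edgeR adjusted p = 0.147), vehicle mouse 1 (0.0689) or vehicle mouse 3 (0.0584) and with classes taken from clusters (0.0563). In all, Cxcl16 kept the call in 13 of 19 alternative settings. Ccl3 (48.1 ± 6.71 and 32.5 ± 9.41 CPM, -0.61 ± 0.18, edgeR adjusted p = 0.0170) and Cxcl10 (5.002 ± 2.36 and 12.3 ± 7.03 CPM, 1.32 ± 0.42, edgeR adjusted p = 0.0275) also passed. Per cell, Ccl3 was 0.903 ± 0.075 and 0.600 ± 0.177 UMIs, against 0.297 ± 0.057 and 0.313 ± 0.042 in B cells. Cxcl10 was 0.0959 ± 0.053 and 0.228 ± 0.131 UMIs per cell, against 0.0604 ± 0.031 and 0.0485 ± 0.043. Ccl3 lost the call without treated mouse 4 (edgeR adjusted p = 0.0931) or vehicle mouse 1 (0.107), and Cxcl10 without treated mouse 2 or 4 or vehicle mouse 1, 2 or 4 (adjusted p from 0.0617 to 0.158). Ccl3 also lost it with hashtag counts scaled per hashtag (0.0956), and Cxcl10 with the hashtag fraction rule (0.0509). The Ccl6 difference of -0.29 ± 0.13 (edgeR adjusted p = 0.133) did not pass, but it did without vehicle mouse 4 (-0.43, adjusted p = 0.00169), without the low-count filter (adjusted p = 0.0468) and with hashtag counts scaled per hashtag (adjusted p = 0.0342). DESeq2 called Ccl2 alone. Mice of the arms did not overlap for Ccl2, Ccl3 and Cxcl16, all lower in treated mice, against 8.39% of genes lower and 10.7% higher. The cDC1 markers themselves summed to 3610 to 4184 CPM in vehicle and 2819 to 3097 in treated cells, and the migratory dendritic cell markers to 23.1 to 34.4 and 7.16 to 16.04, with 1 of 7 at 0. The plasmacytoid dendritic cell markers summed to 10.2 to 16.7 and 1.69 to 5.85. The part of these in the member differences was not tested.

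In cDC2, 0 of 10 members were called by edgeR, where 5.15% of 5554 genes were lower and 3.98% higher and 1223 genes had an unadjusted p below 0.05. DESeq2 called 2, Ccl3 and Ccl4. Ccl4 was 602, 319, 196 and 202 CPM in vehicle mice and 86.2, 55.2, 103 and 118 in treated mice, with no overlap (-1.97 ± 0.50, edgeR adjusted p = 0.0658). It passed without vehicle mouse 1 (-1.50, edgeR adjusted p = 0.0018) or vehicle mouse 3 (-2.17, adjusted p = 0.0410). Ccl3 (-1.01 ± 0.36, edgeR adjusted p = 0.128) also did not overlap, with vehicle mouse 1 far above the others at 167.5 CPM. Ccl6 was 646 ± 85.0 and 824 ± 129 CPM (0.30 ± 0.11, edgeR adjusted p = 0.107), and it passed without treated mouse 1 (0.36, edgeR adjusted p = 0.0421) or vehicle mouse 4 (0.37, adjusted p = 0.0237). Ccl17 ranged from 2.96 to 103 CPM in vehicle mice and from 39.4 to 189 in treated mice. Without overlap were 2 members, both lower in treated mice, against 5.89% of all genes lower and 7.49% higher. Platelet markers, with 3 of 4 at 0, summed to 1.77 to 8.59 CPM in vehicle cDC2 and to at most 1.31 in treated ones, which was not tested.

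**Figure D4:**
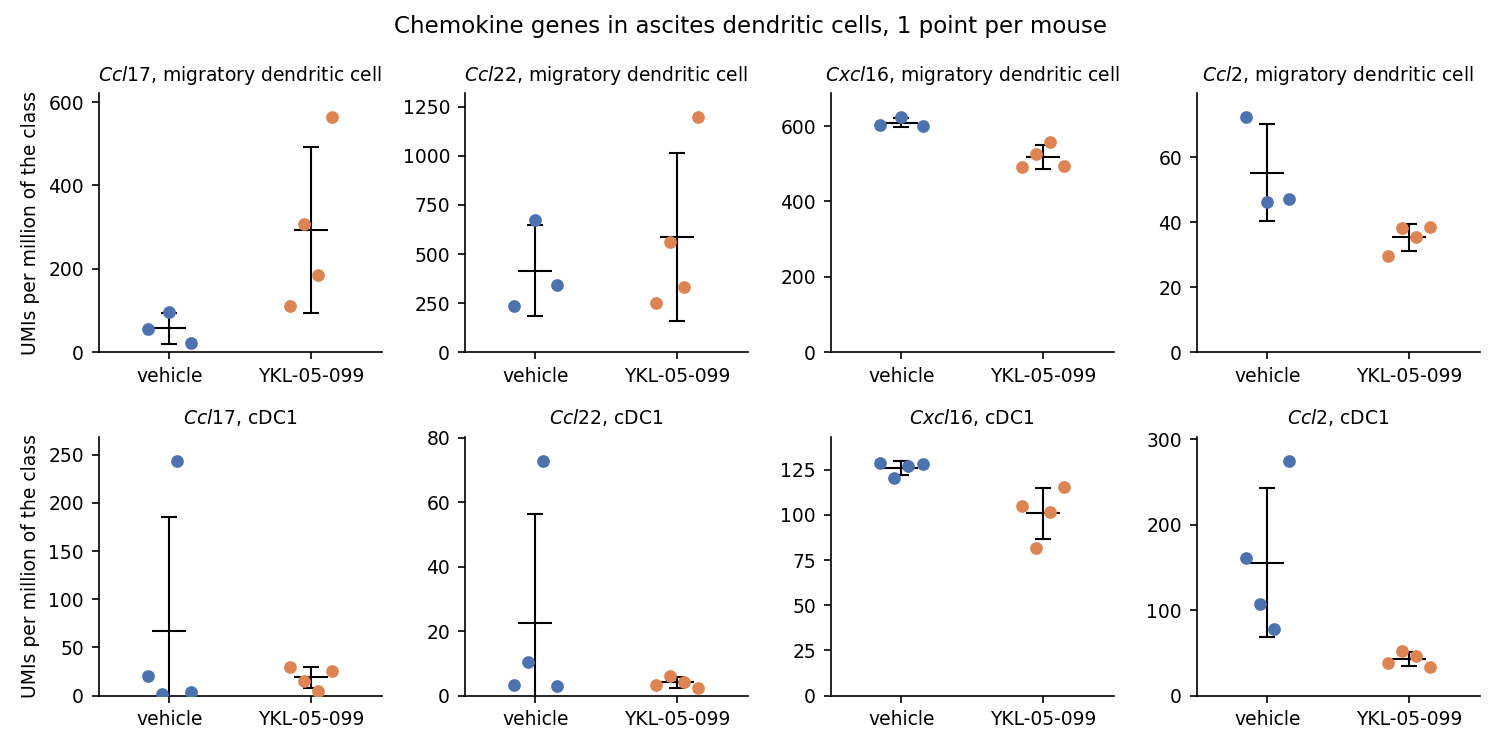
CPM (vertical axes, from 0, where lower error bars are clipped) of Ccl17, Ccl22, Cxcl16 and Ccl2 in migratory dendritic cells (top, 3 vehicle and 4 treated mice) and cDC1 (bottom, 4 and 4), with 1 point per mouse and mean ± SD. Ccl2 fell in cDC1, and the Ccl17 and Ccl22 means of vehicle cDC1 were set by vehicle mouse 3 (244 and 73.0 CPM).

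Neutrophils, the cells that Cxcl1 and Cxcl2 recruit, had the highest Cxcl2 and Ccl3 levels of the classes in ascites. In the 4 vehicle mice Cxcl2 was 37615 ± 7390 CPM, Ccl3 3725 ± 1067 and Ccl4 1021 ± 427. Only treated mouse 2 had 20 or more neutrophils, with 36126, 1832 and 278 CPM, so no test was made. Pooled over mice, Cxcl2 had a UMI in 128 of 128 vehicle and 71 of 72 treated neutrophils. In the pooled sums Cxcl2 was 37904 CPM (37250.3 to 38567) and 32101 CPM (31295.5 to 32922). NK cells were few in ascites, with Ccl4 at 2794 CPM (2549 to 3056) in 36 vehicle cells and 794 CPM (577 to 1066) in 12 treated cells. Classical monocytes had Ccl2 at 405 CPM (361 to 454) and 243 CPM (213 to 276), and Ccl6 at 2907 and 2916 CPM. In B cells (6 members tested) and T cells (7 tested) 0 were called. Of the 5879 genes tested in B cells 5.2% were lower and 3.76% higher, and of the 4006 tested in T cells 0.25% were lower and 0.25% higher. At an unadjusted p below 0.05 there were 1111 and 430 genes in these 2 classes, and DESeq2 called 0 members in both.

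Spleen and blood drew on other cells. For 9 members every spleen and blood mouse had a lower CPM than every ascites mouse, and Cxcl10 was 20.8 to 47.1 CPM in spleens and 36.5 to 133 in ascites. Ascites was a separate library from spleen and blood, so tissue and library cannot be told apart in these levels. Cxcl1 had 0 UMIs in blood and 10 in spleen, and Ccl22 had 3 and 15. Ccl2 came from classical monocytes, with 87.8% of 139 UMIs in vehicle blood and 81.8% of 181 in vehicle spleen. Cxcl2 came mainly from neutrophils (54.5% of 220 UMIs in vehicle blood and 88.8% of 846 in treated blood). Ccl4 in blood was an NK cell transcript, with 79.0% and 70.04% of its UMIs in that class, and NK cells held 48.7% and 30.3% of the Ccl3 UMIs. In spleen, B cells held 65.8% and 92.3% of the few Ccl17 UMIs (38 and 65), and 66.4% of the Ccl17 UMIs of the spleen and blood library lay in 1 cluster of 289 cells led by Adm. Cxcl10 of spleen lay in T cells (44.7% and 36.8%), plasma cells (17.2% and 18.9%) and NK cells (12.0% and 13.3%). It was carried by few cells, since 40 of 4032 spleen cells held 68.0% of its UMIs. Cxcl16 of spleen was highest in 8 vehicle and 5 treated cells of the migratory dendritic cell gate, at 850 CPM (641 to 1107) and 517 CPM (331 to 769). Those cells lay in a cluster led by cDC1 genes.

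In blood NK cells Ccl3 fell, the member difference with the smallest adjusted p of any class. It was 357.5, 273 and 194 CPM in vehicle mice 1 to 3 and 68.8, 68.4 and 86.2 CPM in treated mice 2 to 4. The arms did not overlap, and the difference was -1.83 ± 0.24 (edgeR adjusted p = 4.34e-07, n = 3 each), with the call kept in 15 of 16 alternative settings. This was 1 of 2 members tested and 1 of 4 genes called lower, 0.148% of 2699, with 0.371% called higher. The values rest on 149 UMIs in 129 vehicle cells and 46 UMIs in 147 treated cells. Thinned to 2000 UMIs, 30.6% and 14.4% of NK cells had a Ccl3 UMI, against 1.54% and 0.983% of blood B cells. Ccl4 was 1259, 591 and 597 CPM in vehicle mice and 290.5, 354 and 293 in treated mice. Its arms did not overlap either, as in 6.93% of genes tested (5.11% in the other direction), but it did not pass (-1.35 ± 0.40, edgeR adjusted p = 0.592). On leaving out a mouse, Ccl4 passed only without vehicle mouse 1 (-0.87, edgeR adjusted p = 0.00031). Without the low-count filter 2 members were called in this class. NK cells were 9.74% ± 0.67 of vehicle and 11.9% ± 3.64 of treated blood cells. Their summed cDC1 markers were 393 to 477 CPM in vehicle and 551 to 893 in treated mice, with 1 of 6 genes at 0, and their innate-like lymphocyte markers 309 to 378 and 241 to 252, with 3 of 6 at 0. The cDC2 and platelet markers summed to at most 6.35 CPM in vehicle and 8.62 in treated mice, with 2 of 4 and 3 of 4 at 0. These sums separated the arms, and their part in the Ccl3 difference was not tested.

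In blood as a whole 1 of 6 members was called, against 0.299% of 9362 genes lower and 0.385% higher. Ccl3 was 44.3, 38.1 and 40.0 CPM in vehicle mice and 31.0, 26.8 and 16.3 in treated mice (-0.79 ± 0.18, edgeR adjusted p = 0.0337). The call was lost without treated mouse 3 (edgeR adjusted p = 0.120) or 4 (0.241) or vehicle mouse 1 (0.203) or 2 (0.0964) or with a limit of 5% mitochondrial UMIs (0.118), and it was kept in 7 of 14 alternative settings. Cxcl2 went the other way, with 21.5, 37.7 and 29.3 CPM in vehicle mice and 201.5, 154.7 and 62.9 in treated mice. The arms did not overlap, and the difference of 2.19 ± 0.57 did not pass (edgeR adjusted p = 0.397). On leaving out a mouse, Cxcl2 passed only without treated mouse 4 (2.56, edgeR adjusted p = 0.00534). It was also called with same-numbered mice of the arms taken as blocks. DESeq2 called Cxcl2 (2.21, adjusted p = 0.00461) and not Ccl3 (adjusted p = 0.124). Neutrophils were 1.13% ± 0.18 of vehicle and 2.96% ± 0.97 of treated blood cells, 15 and 36 cells, without overlap (exact permutation p = 0.10, the smallest that 3 against 3 mice allow, and adjusted p = 0.65). Pooled Cxcl2 in them was 2178 CPM (1806 to 2604) and 6702 CPM (6231 to 7199). In whole blood 1 member was without overlap in each direction, against 5.13% of genes tested lower and 9.21% higher. Among the fits that left out a mouse, Ccl2 (17.1 ± 13.4 and 4.03 ± 1.19 CPM) passed only without vehicle mouse 2 (-2.56, edgeR adjusted p = 0.00151), as did Cxcl10 (-2.31, adjusted p = 0.0172).

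In spleen as a whole 0 of 8 members were called by edgeR, against 0.681% of 11162 genes lower and 1.16% higher, with 2178 genes at an unadjusted p below 0.05, and DESeq2 called Ccl2. Ccl2 was 9.27, 4.54 and 19.6 CPM in vehicle mice and 1.17, 2.23 and 2.25 in treated mice, with no overlap (-2.54 ± 0.60, edgeR adjusted p = 0.0922). It passed without vehicle mouse 2 (-2.92, edgeR adjusted p = 0.0314) or 3 (-1.85, adjusted p = 0.0233). In the classical monocytes of spleen, pooled Ccl2 was 104 CPM (88.3 to 123) in 77 vehicle cells and 25.6 CPM (14.6 to 41.5) in 59 treated cells. Most of these cells came from 1 mouse per arm. Vehicle mouse 3 gave 49 cells with 102 Ccl2 UMIs (109 CPM), and treated mouse 4 gave 35 cells with 7 (18.8 CPM). No other mouse had 20 such cells, and the difference was not tested. Cxcl16 was 9.27, 9.70 and 8.998 CPM in vehicle spleens and 2.35, 3.35 and 7.72 in treated spleens (-1.03 ± 0.36, edgeR adjusted p = 0.169), and it passed without treated mouse 4 (-1.66, adjusted p = 0.0329). Spleens of the arms did not overlap for 2 members lower (Ccl2 and Cxcl16) and 1 higher (Cxcl10, 33.9 ± 11.4 and 43.8 ± 3.04 CPM), against 13.1% and 12.9% of genes tested. No member was called by edgeR in spleen B cells (4 tested), spleen T cells (5 tested) or blood B cells (2 tested), where 2.1%, 1.38% and 0.363% of genes were called lower and 2.51%, 0.734% and 0.525% higher. In these classes 1407, 881 and 686 genes had an unadjusted p below 0.05 and DESeq2 called 0 members. Ccl4 in spleen T cells (-0.14 ± 0.69, edgeR adjusted p = 0.969) passed without treated mouse 4 (-1.11, adjusted p = 0.0428).

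**Figure D5:**
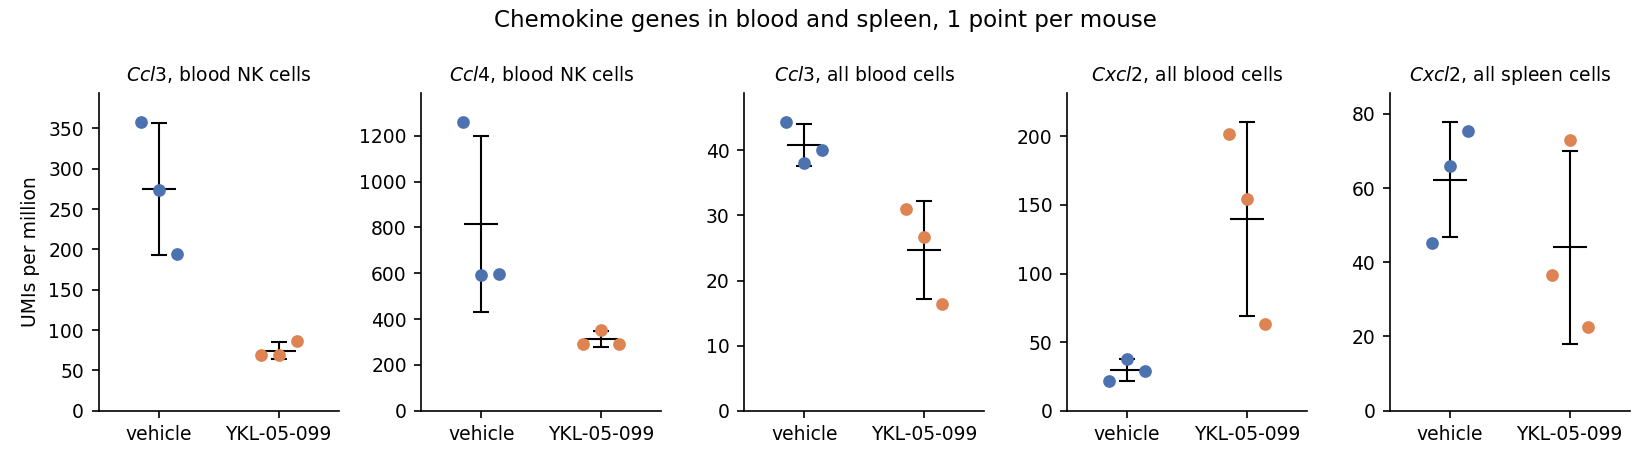
CPM (vertical axes, from 0) of Ccl3 and Ccl4 in blood NK cells, of Ccl3 and Cxcl2 in all blood cells and of Cxcl2 in all spleen cells, with 1 point per mouse and the mean ± SD of 3 vehicle (blue) or 3 treated (orange) mice. Ccl3 fell in blood NK cells from 275 ± 81.8 to 74.5 ± 10.2 CPM, and Cxcl2 overlapped between the arms in spleen but not in blood.

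Whether the treatment difference varied with the tissue was tested with an interaction term that kept the mouse as a block. Over 9 fits, 2 of 59 member tests passed. For Cxcl2 in whole tissue the difference in blood exceeded that in ascites by 2.75 ± 0.31 on the log2 scale (edgeR adjusted p = 0.00891, 3 vehicle and 3 treated mice), where 4.82% of 11460 genes passed. Against spleen, where 0.738% of genes passed, the same contrast was 2.73 ± 0.44 and did not pass (edgeR adjusted p = 0.110). For Ccl4 in B cells the difference in spleen was 1.44 ± 0.42 lower than that in ascites (-1.44, edgeR adjusted p = 0.0271), where 3.71% of 7958 genes passed, at a level of 3.24 to 31.2 CPM in vehicle spleen B cells. The other 7 fits called no member, and 2.43% (whole tissue, spleen against ascites), 2.91% and 1.02% (B cells, blood against ascites and against spleen) and 0.206%, 0.181% and 0.252% (T cells) of all genes. The Ccl4 contrast lost the call without vehicle mouse 1 (-1.85, edgeR adjusted p = 0.425) or 3 (-0.20, adjusted p = 0.943) or treated mouse 3 (-1.23, adjusted p = 0.231) or 4 (-1.20, adjusted p = 0.238).

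Of 16 other chemokine ligands tested in whole ascites, 2 rose and 5 fell, where 8.15% of all genes tested were called higher and 10.2% lower. Ccl12, a Ccr2 ligand, fell by 3.11 ± 0.13 and Cxcl13, the B cell chemoattractant, by 5.50 ± 0.48 (edgeR adjusted p = 5.78e-07 and 0.000222). Cxcl14 (-1.16 ± 0.15, edgeR adjusted p = 0.000556) fell as well, and Cx3cl1 rose by 1.49 ± 0.33 (adjusted p = 0.0103). In the macrophage gate 1 of 12 rose and 3 fell, where 10.4% of all genes tested were called higher and 11.2% lower. The part that rose was near that of all genes. It was Ccl9, which lies beside Ccl6 on chromosome 11 and shares its receptor (0.55 ± 0.10, edgeR adjusted p = 0.00106). Those that fell were Ccl12, Cxcl13 and Cxcl14 (-2.94 ± 0.20, -6.68 ± 0.81 and -0.97 ± 0.24). Among receptors of the members in whole ascites, Ccr1 (-1.89 ± 0.11), which binds Ccl3 and Ccl6, and Ccr2 (-1.66 ± 0.20), which binds Ccl2, fell. Cxcr6, the Cxcl16 receptor, rose by 1.71 ± 0.37 (edgeR adjusted p = 0.00945). Ccr1 and Ccr2 also fell in macrophages (-2.07 ± 0.12 and -1.46 ± 0.22) and in cDC2 (-1.44 ± 0.21 and -2.02 ± 0.16). In cDC1 Ccr2 (-2.55 ± 0.13) and Cxcr3, the Cxcl10 receptor (-1.68 ± 0.19), fell. Cxcr6 rose in spleen T cells (0.60 ± 0.13, edgeR adjusted p = 0.00282), and the neutrophil receptor Cxcr2 rose in whole blood (1.03 ± 0.21, adjusted p = 0.0141).

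The members also differed in how widely they were spread over cells. In ascites the top 1% of cells (63 cells) held 83.9% of the Ccl17 and 72.4% of the Ccl22 UMIs, but 10.55% of the Cxcl2 UMIs. Cxcl2 had a UMI in 93.8% of all ascites cells, including the B cells used above to gauge free RNA. The part of free RNA in this share was not tested. In migratory dendritic cells most cells with a Ccl17 UMI also had a Ccl22 UMI. Of 205 treated migratory dendritic cells 85 had a Ccl17 UMI, 149 a Ccl22 UMI and 75 both, and of 80 vehicle cells 20, 51 and 18. In cDC1, 4 of 21 vehicle and 4 of 30 treated Ccl17 cells also had Ccl22, in cDC2 7 of 18 and 6 of 17, and in macrophages 0 of 7 and 2 of 7. Ccl3 and Ccl4 were detected together in 721 of 1128 vehicle and 360 of 709 treated macrophages, but in 34 of 129 vehicle and 16 of 147 treated blood NK cells. Co-detection rises with depth and is given as a count. Over 26 vehicle sums of class and tissue, which share libraries and depth, the genes most like each member in log2 CPM were named by Pearson correlation among 11946 genes. Cxcl1 was most like Arg1 (r = 0.98), Ccl6 like App (0.93), Cxcl2 like Cd14 (0.92), Ccl22 like Aldh1a2 (0.91), Ccl2 like Trem2 (0.90) and Cxcl16 like Cttnbp2nl (0.88). Ccl3 (Ubald2, 0.86), Ccl4 (Stk11, 0.84), Ccl17 (Phf11a, 0.79) and Cxcl10 (Vmp1, 0.74) had no gene as close.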

How the data were processed

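Single-cell 3' libraries of sorted immune cells were made by the submitters from ascites and from spleen with blood. The deposited UMI counts per gene and hashtag were made by the authors with Cell Ranger 6.1.1 on mm10, per the submitters' processing notes. The sort gate is given in the series text, and the mouse, arm and tissue behind each hashtag in the deposited hashtag notes. The same arm and number in several tissues was taken as 1 animal, and hashtags of an arm as separate animals.

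Barcodes under 200 genes or 500 UMIs, or over 10% mitochondrial UMIs, were dropped, which left 11112 in ascites and 11513 in spleen and blood. Hashtags were called with HTODemux (Seurat 5.3.0, quantile 0.99, hashtag counts scaled within each cell). It called 16.7% and 20.4% of kept barcodes doublets and 26.8% and 22.2% negative, all of which were left out. Doublets within 1 mouse were not searched for. A cell went to the class whose fixed markers scored highest, and cells within 0.05 of a gate limit were 13.8% and 5.44%. Clusters (scanpy 1.11.5) were computed without chemokine genes. Counts were summed per mouse and class, with a class entering from 20 cells per mouse and 2 mice per arm. edgeR 4.0.16 (R 4.3.3; TMM, low-count filter, robust quasi-likelihood test) was fitted across all genes of each tissue or class, with Benjamini-Hochberg adjustment and a threshold of 0.05. Every adjusted p in the report that is not from a permutation test comes from it, except where DESeq2 is named. Shares of classes were compared with exact permutation tests over mice. Poisson intervals (95%) cover counting error only. DESeq2 1.42.0 served as an alternative.

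Tested on simulated counts of ascites as a whole (11694 genes), the edgeR step recovered 77.8% of 2-fold and 94.9% of 4-fold changes. For macrophages (9959 genes) it recovered 79% and 95.8%, for cDC1 (7380 genes) 86.2% and 100%, for whole blood (9283 genes) 80.2% and 96.8%, and for blood NK cells (2529 genes) 76.1% and 98.8%. False calls were 4.9% to 9.5% of calls.

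The text names the 10 members, up to 4 other ligands or receptors per fit with the smallest adjusted p, and the genes of closest pattern. Not every receptor on the list is reported here. The members and lists were chosen with earlier results of these data known. Alternatives were other size factors, DESeq2, no low-count filter, a replicate block, a 5% mitochondrial limit, a hashtag fraction rule, cluster-based classes, a 10-cell limit, gated cells only and leaving out each mouse. Scaling hashtags over cells, and leaving out cells of clusters led by other classes' markers, were added after seeing the data.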

Additional observations from a re-analysis of the deposited data

Results flagged for a closer look

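In 10 of 99 groups of 4 mice, 1 mouse lay apart from the other 3 by Dixon's criterion, where chance gives about 1 in 20. Vehicle mouse 3 was low in whole ascites for Ccl3 (211.5 CPM, others 285 to 297) and Cxcl2 (2350 CPM, others 3421 to 3629). In cDC1 the same mouse was high for Ccl17 (243.9 CPM, others 1.92 to 19.9) and Ccl22 (72.95 CPM, others 2.88 to 10.6), and its 46 cDC1 held 234 of the 276 Ccl17 UMIs of vehicle cDC1, 216 of them in 1 cell outside the cDC1 cluster. Also in cDC1, treated mouse 2 was high for Cxcl2 (279.0 CPM, others 184 to 197) and vehicle mouse 2 low for Cxcl16 (120.1 CPM, others 127 to 129). In cDC2, vehicle mouse 1 was high for Ccl3 (167.5 CPM, others 65.9 to 72.6) and low for Cxcl1 (26.68 CPM, others 40.7 to 43.0), and vehicle mouse 4 was high for Ccl6 (773.7 CPM, others 602 to 605). Vehicle mouse 4 was low for Ccl6 in the macrophage gate (2364 CPM, others 3504 to 3715).

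In 2 of the 59 member tests of an interaction the treatment difference itself differed between tissues. Cxcl2 in whole tissue had a treatment difference 2.75 higher in blood than in ascites on the log2 scale. Ccl4 in B cells gave -1.44 for spleen against ascites, where ascites B cells held 0.309 ± 0.068 and 0.320 ± 0.066 Ccl4 UMIs per cell.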

How the results depend on the processing

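Of the alternative values of single members, 761 kept direction and call, 57 gained a call, 56 lost one and 32 changed sign. The cause was not tested. Counts of called members below are given without the share of all genes called in the same fit, which is not reported here. A changed count is therefore not a result about the members alone. The called members of ascites went from 3 to 7 with DESeq2, to 5 with hashtags scaled over cells, to 6 with gated cells only, and to 2 to 6 on leaving out a mouse. In cDC1 the 4 became 1 (DESeq2), 2 (hashtags scaled over cells) or 0 to 4 (a mouse left out). In cDC2 the 0 became 2 (DESeq2), 1 (no filter), 1 (5% mitochondrial limit), 2 (cluster-based classes) or 0 to 1 (a mouse left out). The 1 in macrophages became 3 (DESeq2), 4 (no filter), 0 (5% limit), 2 (hashtags scaled over cells) or 0 to 5 (a mouse left out). In migratory dendritic cells it became 2 (DESeq2) or 0 (10-cell limit), in whole blood 2 (no filter), 0 (5% limit) or 0 to 2 (a mouse left out), and in blood NK cells 2 (no filter) or 1 to 2 (a mouse left out). In spleen the 0 became 1 (DESeq2) or 0 to 1 (a mouse left out), and in spleen T cells 0 to 1. Of the interaction counts on leaving out a mouse, blood against ascites gave 1 to 2, spleen against ascites and blood against spleen 0 to 1, and B cells in spleen against ascites 0 to 1. That last count was 0 with other size factors and 0 with the fraction rule, which gave 1 for blood against spleen. Ccl3 of ascites kept its call in 16 of 16 alternatives (-1.03 to -0.76).

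Deviations of same-numbered mice of the arms correlated at 0.0511 to 0.400 in ascites, 2 of the 4 pairs over 0.1, at 0.121 and 0.166 in spleen and at -0.0905 and -0.0767 in blood. Not every ascites pair was over 0.1, and spleen and blood had 2 pairs each, so the numbers were not taken to pair the mice. With the replicate block the count was 1 in cDC2, 2 in migratory dendritic cells, 3 in spleen, 1 in spleen T cells and 0 in blood NK cells, and Ccl22 of migratory dendritic cells gave -0.091. Under the block edgeR did not call Ccl2 (adjusted p = 0.0647) and Ccl4 (0.234) of ascites, Ccl2 of cDC1 (0.0908), Ccl3 of whole blood (0.603) and Ccl3 of blood NK cells (-1.68, adjusted p = 0.919). It also called Ccl22 (1.39) and Cxcl16 (0.26) of ascites and Cxcl2 of whole blood (2.37).

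Sign changes were in members not called. With hashtags scaled over cells they were Ccl6 (-0.23) and Cxcl10 (-0.49) of ascites, Ccl17 (-0.89), Cxcl1 (-0.30) and Cxcl10 (0.83) of cDC2 and Cxcl10 of spleen (-0.20). Cluster-based classes gave cDC2 Ccl17 -0.87, Cxcl1 -0.19, Cxcl2 -0.051 and Cxcl10 0.45, and macrophage Cxcl16 0.035. The last was 0.12 with the 5% limit and 0.040 without clusters led by other markers. Cxcl2 of spleen was 0.089 with the 5% limit, and Ccl6 of migratory dendritic cells 0.084 without a filter and 0.036 with the 10-cell limit. On leaving out a mouse, Ccl6 of ascites ranged from -0.097 to 0.28 and Cxcl10 from -0.089 to 0.44. In cDC2 Ccl22 ranged from -1.42 to 0.43, Cxcl1 from -0.13 to 0.52, Cxcl2 from -0.20 to 0.28, Cxcl10 from -0.82 to 0.0032 and Cxcl16 from -0.48 to 0.050. Macrophage Cxcl16 ranged from -0.083 to 0.039, and in migratory dendritic cells Ccl6 ranged from -0.073 to 0.00092 and Ccl22 from -0.15 to 0.99.

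Vehicle Cxcl16 of migratory dendritic cells (609 CPM) was 627 with the 5% limit and 622 without clusters led by other markers. Thinning lowered detection of Ccl22 from 72.7% to 40.2%, of Cxcl16 from 95.1% to 64.2% and of Ccl2 in vehicle macrophages from 79.2% to 45.1%. Cxcl1 and Ccl22 of spleen and blood did not pass the count filter.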
